A study of Rattus norvegicus with 23 samples.

Results

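Mitochondrial DNA encodes a small set of proteins, all of them subunits of the respiratory chain and of ATP synthase. Described here are the 6 that belong to complexes III, IV and V: Mt-cyb (ENSRNOG00000031766), Mt-co1 (ENSRNOG00000034234), Mt-co2 (ENSRNOG00000030371), Mt-co3 (ENSRNOG00000030700), Mt-atp6 (ENSRNOG00000031979) and Mt-atp8 (ENSRNOG00000033299). They were chosen by identifier, with earlier results of these data known. All 6 were among the 26405 genes of every count file and passed the filter on low counts, as 11568 genes did. The measurement was RNA-seq of poly(A)-selected RNA from the heart apex of 23 Lewis rats, taken 6 weeks after kidney transplantation, with 1 library per rat.

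Healthy and diseased kidney donors were combined with healthy and diseased recipients. The groups were HD-HR (healthy donor, healthy recipient, n = 6), CD-HR (donor with chronic kidney disease, CKD, and healthy recipient, n = 6), HD-CR (healthy donor, CKD recipient, n = 5) and CD-CR (CKD donor and CKD recipient, n = 6). CKD had been produced by coagulating branches of both renal arteries to ablate part of the kidneys, followed by the nitric oxide synthase inhibitor L-NNA at 200 mg/L in the drinking water and chow with 6% NaCl. L-NNA and NaCl were stopped at a proteinuria of 200 mg per 24 h, and CKD rats entered the protocol when proteinuria reached 100 mg per 24 h without them. The hearts of CKD recipients had therefore been exposed to L-NNA and salt as well as to kidney disease, which cannot be told apart here. Rats of all 4 groups, HD-HR included, received a left kidney with cold and warm ischemia of 30 min each and lost the right native kidney 10 to 14 days later. The labels used here give neither age nor sex of the rats.

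Electrons reach complex III from reduced ubiquinone and pass through its cytochrome b, the product of Mt-cyb, on their way to cytochrome c. Complex IV, cytochrome c oxidase, hands them to oxygen, and Mt-co1, Mt-co2 and Mt-co3 encode its catalytic core, with the heme and copper centres in the products of Mt-co1 and Mt-co2. Protons pumped by these complexes return through ATP synthase, complex V, where the Mt-atp6 product forms part of the proton path and the Mt-atp8 product is a small membrane subunit. Heart muscle depends on oxidative phosphorylation and is rich in mitochondria, and all 6 transcripts are cut from long precursors of the same strand of mitochondrial DNA. In bulk tissue a higher level can mean more RNA per cell or more cells that are rich in mitochondria, and these cannot be told apart.

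Library depth was 7391929 to 12444980 counts in genes. Alignments to more than 1 place, which are not counted in any gene, numbered 0.390 to 10.7 per counted read, with a median of 2.31 in the 12 healthy recipients and 1.20 in the 11 CKD recipients. Copies of mitochondrial DNA in the nuclear genome can turn mitochondrial reads into such alignments, so the levels of these genes are uncertain to an unknown extent. Scaling factors by the trimmed mean of M-values (TMM) were highest in CD-CR1 (1.46), HD-CR2 (1.32) and HD-HR4 (1.17), and lay between 0.818 and 1.14 in the other libraries. The animal names in the deposit begin with 12 or 13. The meaning of these prefixes is not given. All 12 healthy recipients have prefix 13, while 9 CKD recipients have 12 and 2 (HD-CR5 and CD-CR5) have 13. The deposited files carry no gene names, so the tissue could not be checked against cardiac markers.

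Together the 6 genes took 40.2% ± 4.01 (SD, n = 23) of all counts in genes, with 31.9% in the lowest library (CD-HR5) and 45.9% in the highest (CD-CR2). The summed share averaged 39.5% ± 3.29 for HD-HR, 37.1% ± 3.33 for CD-HR, 42.3% ± 3.95 for HD-CR and 42.2% ± 3.85 for CD-CR (SD over rats, n = 6, 6, 5 and 6). Healthy recipients ranged from 31.9 to 43.0% (median 38.9%) and CKD recipients from 35.5 to 45.9% (median 42.8%), so the ranges overlapped over most of their length. Of the 11 CKD recipients, 5 lay above the highest healthy recipient, and of the 12 healthy recipients, 2 (HD-HR4 and CD-HR5) lay below the lowest CKD recipient. The sum is given as a description, with no test.

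**Figure D1:**
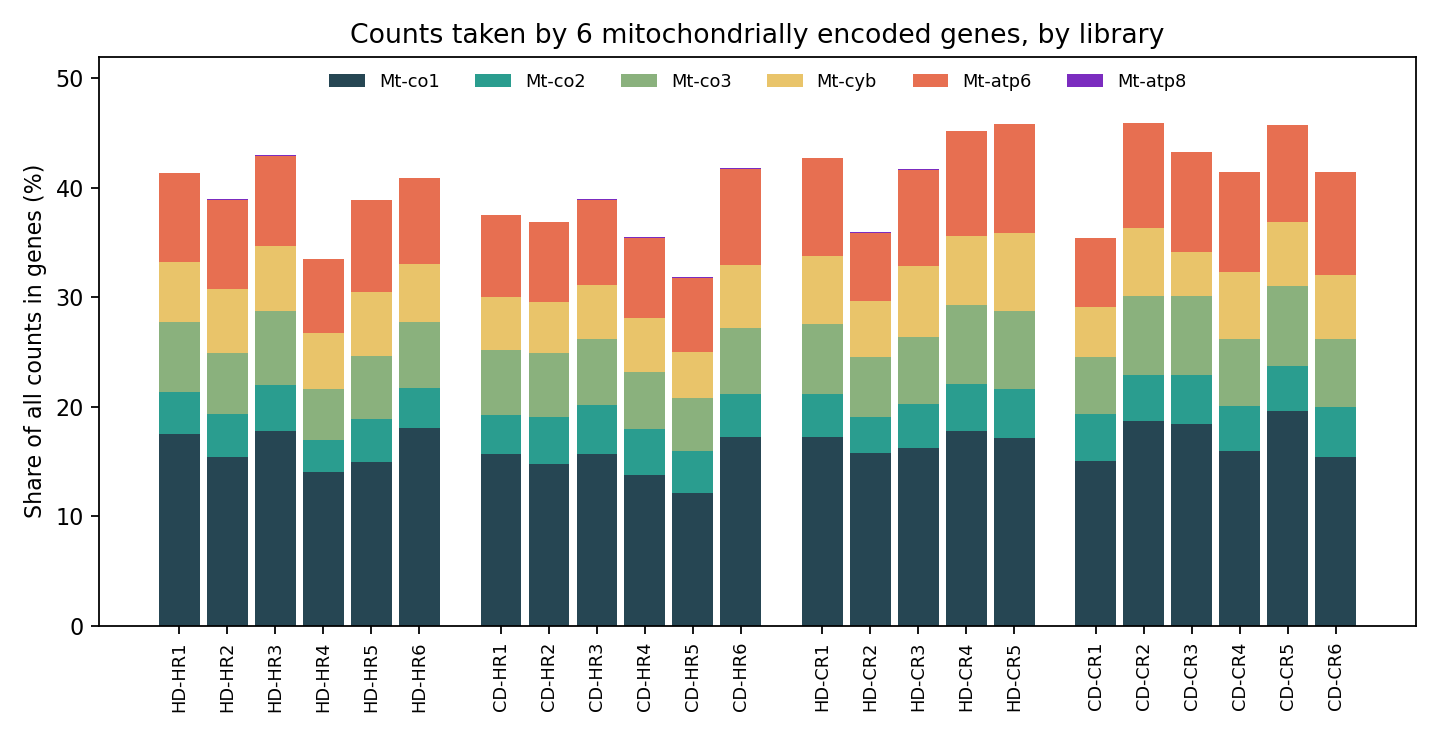
Share of all counts in genes (%) taken by each of the 6 mitochondrially encoded genes, stacked, with 1 bar per library, ordered by group. The bars end between 31.9% (CD-HR5) and 45.9% (CD-CR2), and Mt-atp8 is barely visible at the top of each.

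Mt-co1 was the gene with the most counts in 22 of the 23 libraries. In CD-HR5, the library with the most non-unique alignments per count (10.7), ENSRNOG00000043866 came first with 13.1%. Mt-co1, Mt-co2, Mt-co3, Mt-cyb and Mt-atp6 were each among the 10 most abundant genes of every library. Mt-atp8 ranked between 35 and 286. These are ranks of counts, not corrected for transcript length, and so are no order of transcript levels. Counting error was small: the largest half-width of the 95% exact binomial interval of a share was 0.0254 percentage points for Mt-co1 and 5.17% of the value itself for Mt-atp8, and these intervals cover counting error only.

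Complex IV showed higher mean shares in CKD recipients for each of its 3 mitochondrial genes. The shares were not tested, and none of the 3 genes passed the test on TMM-scaled counts given further on. Mt-co1 took 14.0 to 18.1% of counts in HD-HR (median 16.5%), 12.1 to 17.2% in CD-HR (median 15.3%) and 15.0 to 19.6% in CD-CR (median 17.2%). In HD-CR its shares were 17.2, 15.8, 16.3, 17.8 and 17.2% in replicates 1 to 5. The HD-CR libraries all fell within the range of HD-HR, whereas 3 of 6 CD-CR libraries lay above all of CD-HR and 3 of 6 CD-HR libraries lay below all of CD-CR. Means were 16.3% ± 1.70 for HD-HR, 14.9% ± 1.77 for CD-HR, 16.8% ± 0.804 for HD-CR and 17.2% ± 1.95 for CD-CR (SD over rats, n = 6, 6, 5 and 6).

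The share of Mt-co2 varied least in CD-CR, where it ran from 4.13 to 4.54% (median 4.22%). It ran from 2.89 to 4.22% in HD-HR (median 3.86%) and from 3.57 to 4.45% in CD-HR (median 4.07%), and stood at 3.94, 3.32, 4.02, 4.33 and 4.43% in HD-CR. HD-HR4 was the lowest library of all, and the 4 groups overlapped. Its means, 3.74% ± 0.450 for HD-HR, 4.05% ± 0.331 for CD-HR, 4.01% ± 0.438 for HD-CR and 4.28% ± 0.170 for CD-CR (SD over rats, n = 6, 6, 5 and 6), were lowest in the group with CKD in neither animal. The small spread in CD-CR held for the share only. In TMM-scaled CPM the coefficient of variation was 17.5% in CD-CR and 15.3% in CD-HR.

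Mt-co3 followed Mt-co1 closely. Its shares ran from 4.73 to 6.77% in HD-HR (median 5.90%), from 4.90 to 6.00% in CD-HR (median 5.84%) and from 5.25 to 7.26% in CD-CR (median 6.69%), and were 6.41, 5.44, 6.06, 7.15 and 7.13% in HD-CR. In CD-CR, 5 of 6 libraries lay above all of CD-HR, the exception being CD-CR1 at 5.25%. Means were 5.88% ± 0.699 for HD-HR, 5.63% ± 0.466 for CD-HR, 6.44% ± 0.731 for HD-CR and 6.53% ± 0.814 for CD-CR (SD over rats, n = 6, 6, 5 and 6).

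Mt-cyb of complex III had its highest mean in HD-CR and its lowest in CD-HR. Its shares were 6.18, 5.11, 6.45, 6.38 and 7.09% in HD-CR, of which 4 of 5 lay above every HD-HR library (5.10 to 5.97%, median 5.70%). CD-HR ran from 4.18 to 5.82% (median 4.90%), with 5 of its 6 libraries below all of HD-HR. CD-CR ran from 4.05 to 6.26% (median 5.87%), and all 6 of its libraries lay below the median of HD-CR. CD-CR3 had the lowest Mt-cyb share of all 23 libraries (4.05%) although its Mt-co1 share (18.5%) was among the highest. Means were 5.62% ± 0.343 for HD-HR, 4.89% ± 0.538 for CD-HR, 6.24% ± 0.718 for HD-CR and 5.45% ± 0.916 for CD-CR (SD over rats, n = 6, 6, 5 and 6). With either kind of recipient, the mean was lower with a CKD donor kidney. These share differences were not tested, and Mt-cyb did not pass the test on TMM-scaled counts given further on. The separations of libraries hold for shares only. In TMM-scaled CPM, CD-HR ran from 42904 to 62027 and HD-HR from 43675 to 63705. CD-CR reached 74345, above the HD-CR median of 65664.

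Mt-atp6 of complex V split the CKD recipients into libraries above and below all healthy recipients. Its shares were 6.76 to 8.36% in HD-HR (median 8.09%) and 6.77 to 8.77% in CD-HR (median 7.39%). In HD-CR they were 8.99, 6.27, 8.83, 9.56 and 9.99%, and in CD-CR 6.28, 9.56, 9.13, 9.10, 8.79 and 9.41% in replicates 1 to 6. Thus 9 of 11 CKD recipients lay above the highest of the 12 healthy recipients, by a margin that was small for CD-CR5 (8.79% against 8.77% in CD-HR6), and the other 2, HD-CR2 and CD-CR1, lay below the lowest. HD-CR2 and CD-CR1 are the libraries with the highest TMM factors, and the part of library composition in this split was not tested. The upper side of the split depends on the scale. In TMM-scaled CPM, HD-CR1 (90866) and HD-CR3 (89842) lay below CD-HR6 (93466). How many of all genes split in this way was not counted. Both CKD recipients of prefix 13, HD-CR5 and CD-CR5, were among the 9. Means were 7.89% ± 0.586 for HD-HR, 7.57% ± 0.677 for CD-HR, 8.73% ± 1.45 for HD-CR and 8.71% ± 1.22 for CD-CR (SD over rats, n = 6, 6, 5 and 6).

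Mt-atp8 behaved unlike the other 5 genes, with low counts (1459 to 13743 per library) and a wide spread. Its share ran from 0.0192 to 0.0709% in HD-HR (median 0.0295%), from 0.0229 to 0.113% in CD-HR (median 0.0427%) and from 0.0207 to 0.0445% in CD-CR (median 0.0331%), and was 0.0377, 0.0253, 0.0315, 0.0243 and 0.0280% in HD-CR. The highest values were those of CD-HR4 (0.113%), CD-HR5 (0.0933%) and HD-HR3 (0.0709%), all healthy recipients, and all groups overlapped. Across the 23 libraries the coefficient of variation of the share was 59.4% for Mt-atp8, against 9.74% for Mt-co2, 11.0% for Mt-co1, 12.2% for Mt-co3, 13.2% for Mt-atp6 and 14.1% for Mt-cyb. In TMM-scaled CPM the contrast was smaller, with 62.2% for Mt-atp8 against 18.9% (Mt-co2) to 22.8% (Mt-atp6) for the other 5.

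The reading frames of Mt-atp8 and Mt-atp6 overlap, and both proteins are made from a shared transcript. There were 64.5 to 439.6 counts of Mt-atp6 per count of Mt-atp8, a ratio that is not corrected for length. The counter sets aside reads that could belong to more than 1 gene as ambiguous, and such reads, from all genes of a library together, numbered 12.8 to 74.3 per Mt-atp8 count (median 50.6). How many of them came from Mt-atp8 was not tested, so its level is uncertain.

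**Figure D2:**
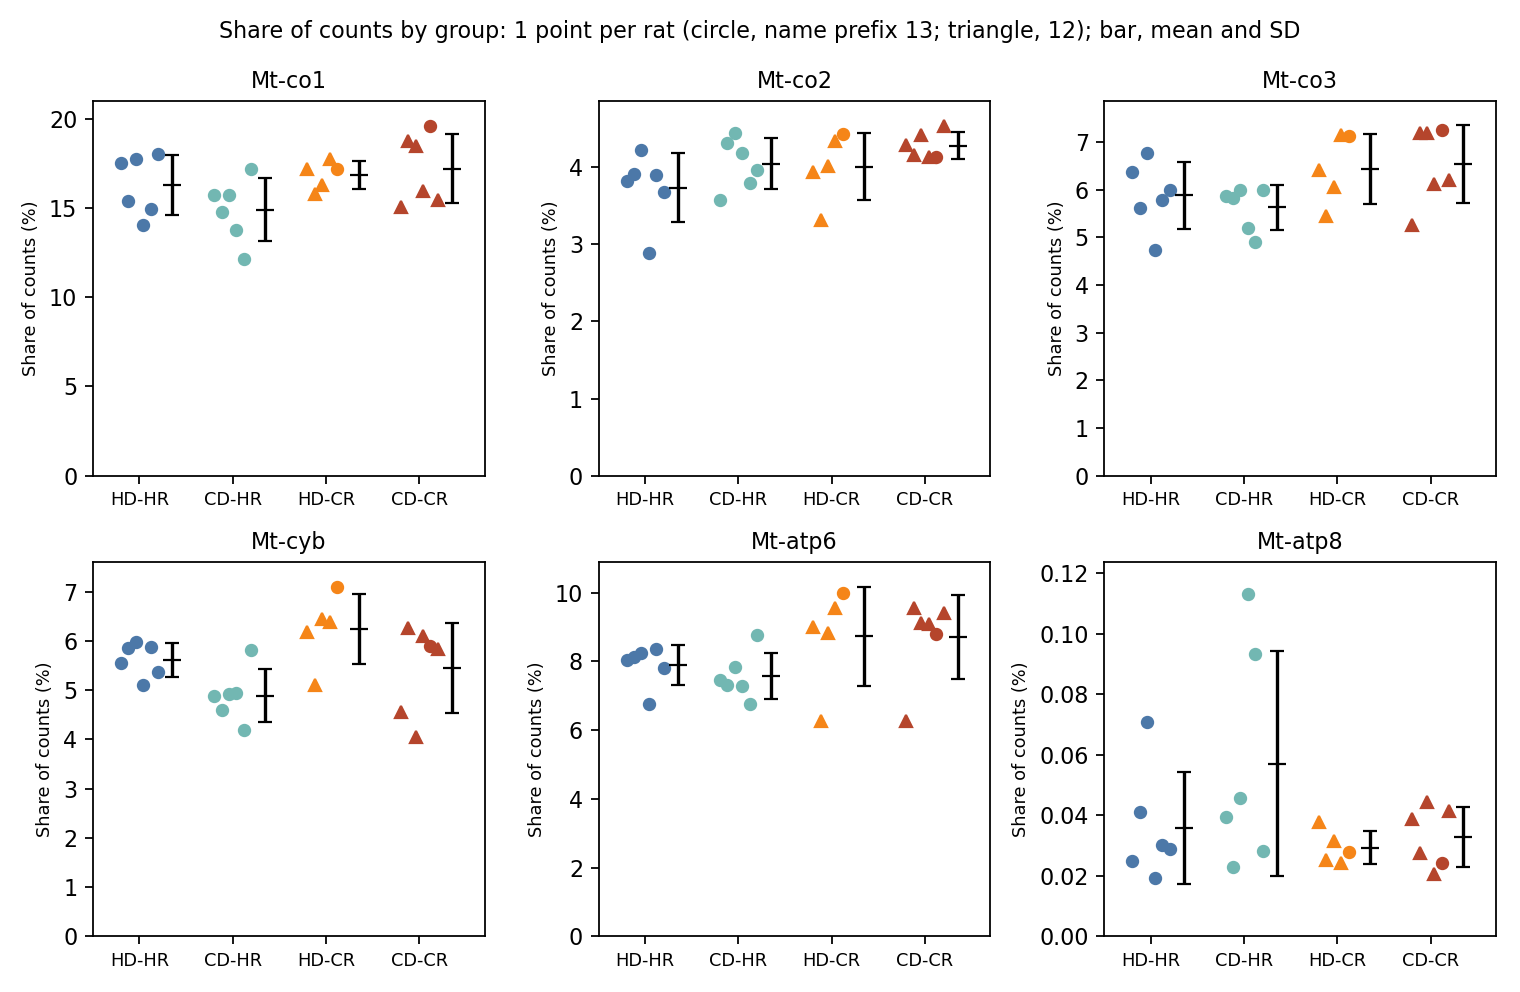
Share of counts in genes (%) of each gene by group, 1 point per rat (circles, animal names beginning with 13; triangles, 12), with mean and SD as a bar beside the points. The points of the groups overlap in every panel, and in the Mt-atp6 panel 9 CKD recipients lie above all healthy recipients while HD-CR2 (6.27%) and CD-CR1 (6.28%) lie below them.

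Whether CKD of the recipient went with a different level of these genes was tested by edgeR on TMM-scaled counts, averaged over both kinds of donor kidney. Of the 6 genes, 0 were called at an adjusted p under 0.05, where 12.8% of all genes tested were called, and 0 had an unadjusted p under 0.05, as 29.5% of all genes did. DESeq2 also called 0 of the 6, and 15.7% of all genes. The shares of 0 of the 6 genes were without overlap between recipients, as were those of 0.0346% of all genes tested. The log2 fold changes were 0.17 ± 0.12 for Mt-co1, 0.13 ± 0.12 for Mt-co2, 0.22 ± 0.13 for Mt-co3, 0.21 ± 0.13 for Mt-cyb and 0.23 ± 0.14 for Mt-atp6 (each ± SE). The adjusted p of these 5 lay between 0.272 and 0.506. Mt-atp8 differed in sign, with a log2 fold change of -0.53 ± 0.28 (SE, edgeR adjusted p = 0.215). The median of the 6 was 0.19, against -0.0052 over all genes tested.

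The intervals show what size of change this fit, which has no covariate, leaves room for. They do not cover the alternative fits given below, some of which had larger log2 fold changes. For Mt-atp6 the 95% interval of the ratio of CKD to healthy recipients was 0.959 to 1.44, for Mt-co3 0.965 to 1.41, for Mt-cyb 0.957 to 1.39, for Mt-co1 0.946 to 1.35 and for Mt-co2 0.919 to 1.30. All 5 intervals held a ratio of 1, and the highest upper bound in this fit was 1.44. For Mt-atp8 the interval was wider, 0.463 to 1.04.

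This result moved with a few libraries. Without CD-CR1, HD-CR2 and HD-HR4, the 3 libraries with the largest TMM factors and a choice made after seeing the data, edgeR called 3 of the 6 genes, Mt-atp6 (log2 0.36, adjusted p = 0.0112), Mt-co3 (0.32, adjusted p = 0.0333) and Mt-cyb (0.32, adjusted p = 0.0420), where 5.75% of all genes tested were called. In that fit 5 of the 6 had an unadjusted p under 0.05, as 24.6% of all genes did. These 3 libraries include the lowest CKD recipient of each donor group for the summed share (35.5 and 35.9%), and the lowest HD-HR library (33.5%). The choice was thus not independent of the levels tested, so the p-values of that fit do not have their usual meaning. Leaving out any single one of the 23 libraries gave 0 called genes. All healthy recipients have prefix 13. With the prefix as a covariate, as in prefix 13 alone, the recipient difference therefore rests largely on HD-CR5 and CD-CR5. They are the only CKD recipients of that prefix, and their summed shares were high (45.9 and 45.7%). The same holds for the comparisons by donor kidney below. With the name prefix as a covariate the log2 fold changes were larger, 0.42 for Mt-co1, 0.32 for Mt-co2, 0.50 for Mt-co3, 0.49 for Mt-cyb and 0.47 for Mt-atp6, and none passed (smallest edgeR adjusted p of the 6, 0.232), with 2 of the 6 at an unadjusted p under 0.05, as 19.3% of all genes were. Among libraries of prefix 13 alone, where each group of CKD recipients is a single rat assumed to vary like the healthy recipients, they were 0.45, 0.35, 0.53, 0.52 and 0.49 (edgeR adjusted p 0.134 to 0.342), with 4 of the 6 at an unadjusted p under 0.05, as 18% of all genes were. With library totals in place of TMM, 2 of the 6 and 19.2% of all genes had an unadjusted p under 0.05. With the number of non-unique alignments per count as a covariate they were smaller, 0.053, 0.11, 0.13, 0.11 and 0.14 (edgeR adjusted p 0.625 to 0.836).

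With a healthy donor kidney, HD-CR (n = 5) against HD-HR (n = 6), edgeR called 0 of the 6 genes, where 0.614% of all genes tested were called, and 0 had an unadjusted p under 0.05, as 18.1% of all genes did. DESeq2 called 0 of the 6 and 2.24% of all genes. The shares of 0 of the 6 were without overlap between these groups, against 1.78% of all genes. The log2 fold changes ran from 0.092 (Mt-co1) to 0.21 (Mt-atp6) in 5 genes, and Mt-atp8 was at -0.27 ± 0.40 (SE). Leaving out single libraries moved Mt-co1 between 0.023 (without HD-HR4) and 0.21 (without HD-CR2). Mt-co2 ran from 0.062 to 0.30, Mt-co3 from 0.089 to 0.33, Mt-cyb from 0.10 to 0.36 and Mt-atp6 from 0.11 to 0.39, each lowest without HD-CR5 and highest without HD-CR2, and none passed. The widest interval among the 5 was that of Mt-atp6, with ratios of 0.861 to 1.55. With the prefix covariate these 5 log2 values were 0.34 to 0.48, and with prefix 13 alone, which leaves HD-CR5 as the only CKD recipient, 0.35 to 0.61, none of which passed by edgeR (smallest adjusted p 0.323 and 0.185). In prefix 13, 3 of the 6 and 18% of all genes had an unadjusted p under 0.05, and without CD-CR1, HD-CR2 and HD-HR4 2 of the 6 and 16.4% of all genes did.

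With a CKD donor kidney, CD-CR (n = 6) against CD-HR (n = 6), edgeR again called 0 of the 6 genes, where 1.56% of all genes tested were called, and 0 had an unadjusted p under 0.05, as 17.8% of all genes did. DESeq2 called 0 of the 6, and 3.88% of all genes, with 1 of the 6 at an unadjusted p under 0.05, as 18.5% of all genes were. The shares of 0 of the 6 were without overlap, against 0.562% of all genes. Mt-co3 was at a log2 fold change of 0.27 ± 0.19, Mt-atp6 at 0.26 ± 0.20, Mt-co1 at 0.26 ± 0.17, Mt-cyb at 0.21 ± 0.18 and Mt-co2 at 0.11 ± 0.17 (each ± SE). Mt-atp8 had the smallest p of the 6, with a log2 fold change of -0.78 ± 0.39 (SE, edgeR adjusted p = 0.294). Its value was -0.48 without CD-HR5, a library with a high Mt-atp8 share (0.0933%) and the most non-unique alignments per count. With the prefix covariate the other 5 were at 0.31 to 0.56 (edgeR adjusted p 0.410 to 0.620), and with prefix 13 alone, where CD-CR5 is the only CKD recipient, at 0.18 to 0.55 (adjusted p 0.866 to 0.925). An unadjusted p under 0.05 was found for 2 of the 6 with the prefix covariate (12.1% of all genes), 1 in prefix 13 (5.51%), 1 with library totals (11.1%) and 4 without CD-CR1, HD-CR2 and HD-HR4 (12.9%).

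Healthy recipients of a CKD kidney, CD-HR (n = 6), were compared with healthy recipients of a healthy kidney, HD-HR (n = 6). All 12 of these rats have prefix 13. edgeR called 0 of the 6 genes and 0% of all genes tested, with 0 of the 6 at an unadjusted p under 0.05, as 7.6% of all genes were. DESeq2 called 0 of the 6 and 0.0605% of all genes, and the shares of 0 of the 6 were without overlap, against 0.156% of all genes. Mt-atp6 and Mt-co3 were close to no difference, at log2 -0.0010 ± 0.20 and -0.011 ± 0.19 (SE), and Mt-co1 was at -0.075 ± 0.17. Mt-cyb was at -0.14 ± 0.18, with a ratio of 0.905 and a 95% interval of 0.698 to 1.17. Mt-co2 was at 0.17 ± 0.17 and Mt-atp8 at 0.70 ± 0.39 (edgeR adjusted p = 0.716). Without CD-HR5 the last value was 0.39 and without HD-HR3 it was 1.06, neither of which passed.

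In CKD recipients, CD-CR (n = 6) against HD-CR (n = 5), edgeR called 0 of the 6 genes, where 0.0259% of all genes tested were called, and 0 had an unadjusted p under 0.05, as 8.31% of all genes did. DESeq2 called 0 of the 6 and 0.311% of all genes, and the shares of 0 of the 6 were without overlap, against 0.622% of all genes. Mt-cyb was again lower with a CKD donor kidney, at log2 -0.15 ± 0.19 (SE, edgeR adjusted p = 0.864), and the other 5 were at 0.048 to 0.19. Among the 9 rats of prefix 12 edgeR also called 0 of the 6, with a smallest adjusted p of 0.890, where 0.0353% of all genes tested in them were called. The comparisons of donor kidneys share no library with each other, and Mt-cyb stood at -0.14 in one and -0.15 in the other, each with an interval that holds 0. Leaving out single libraries moved Mt-cyb from -0.22 to -0.098 in healthy recipients and from -0.29 to -0.032 in CKD recipients. A lower level with a CKD donor kidney was thus not shown. In the donor by recipient interaction edgeR called 0 of the 6, where 0.00864% of all genes tested were called, with 0 of the 6 at an unadjusted p under 0.05, as 3.26% of all genes were. DESeq2 called 0 of the 6 and 0.0173% of all genes. No difference between the donor comparisons was thus detected for any of these genes, and their interaction values ran from -0.51 (Mt-atp8) to 0.16 (Mt-co1).

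**Figure D3:**
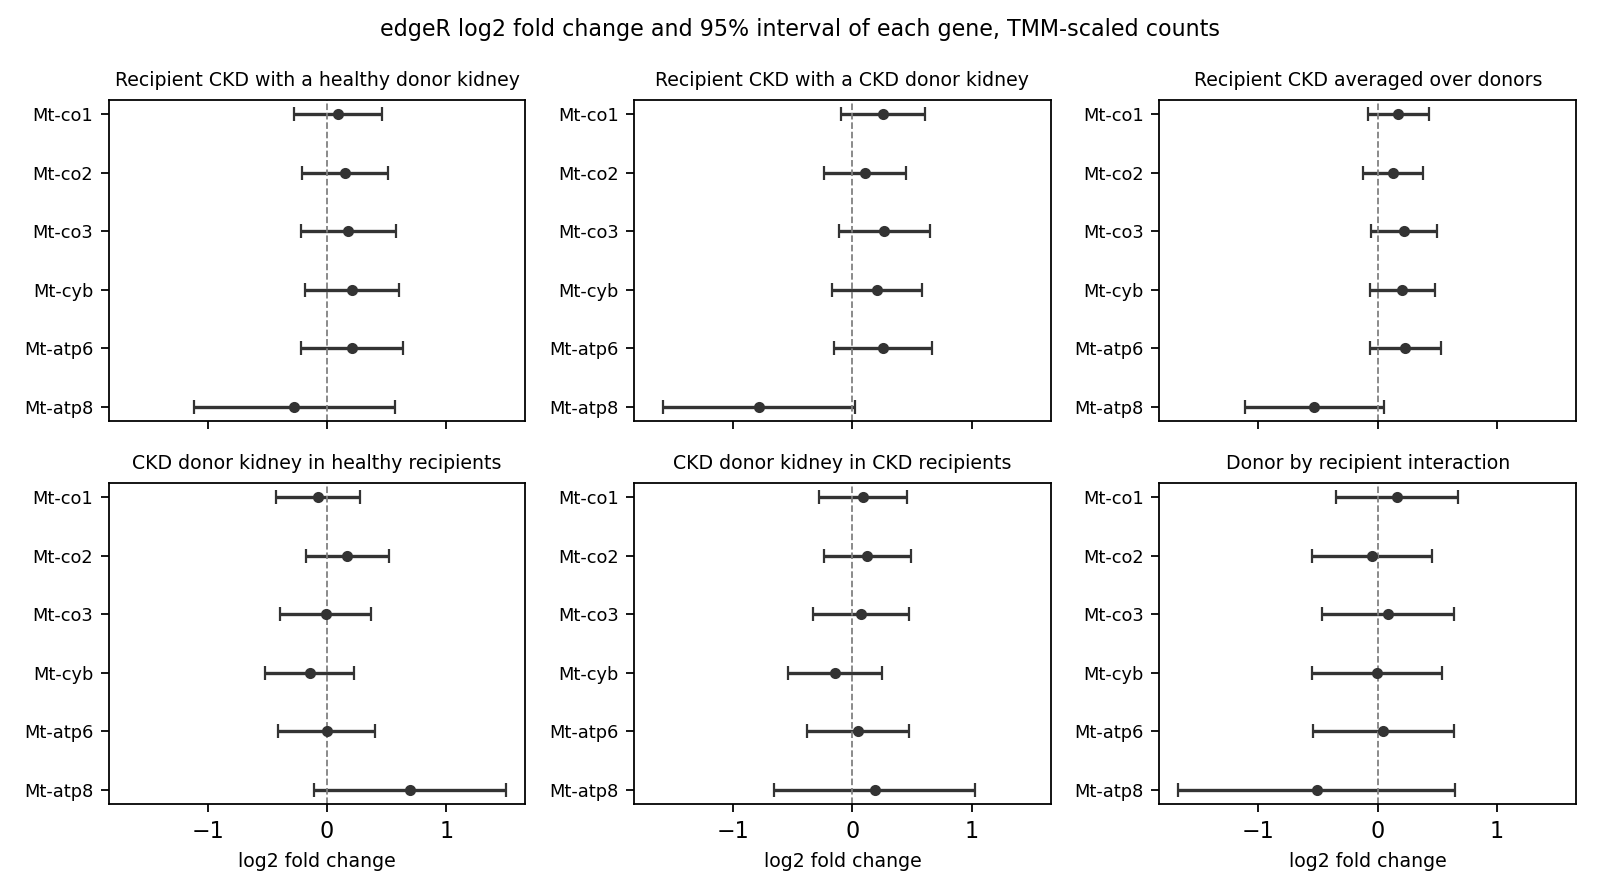
Log2 fold change (point) and 95% interval (bar) of each gene from edgeR in the 6 comparisons, with no change at the dashed line. All 36 intervals hold 0, and those of Mt-atp8 are the widest in each panel.

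The balance among the genes varied between rats within each group, and the 4 groups overlapped for each gene. Relative to 100 counts of Mt-co1 in the same library, Mt-co3 had 33.3 to 41.5 counts, the smallest ratio of highest to lowest among the 5 (1.25), with means of 36.1 ± 2.25 for HD-HR, 37.9 ± 1.90 for CD-HR, 38.1 ± 2.78 for HD-CR and 37.9 ± 1.79 for CD-CR (SD over rats, n = 6, 6, 5 and 6). Mt-atp6 had 39.7 to 61.0 counts, with both the lowest value (HD-CR2) and the highest (CD-CR6) in CKD recipients. Mt-co2 had 20.4 to 31.2, and its highest group mean was that of CD-HR, 27.5 ± 3.69. Mt-cyb had 21.9 to 41.2, from CD-CR3 to HD-CR5. These ratios do not depend on the scaling of libraries, carry no length correction and were not tested.

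**Figure D4:**
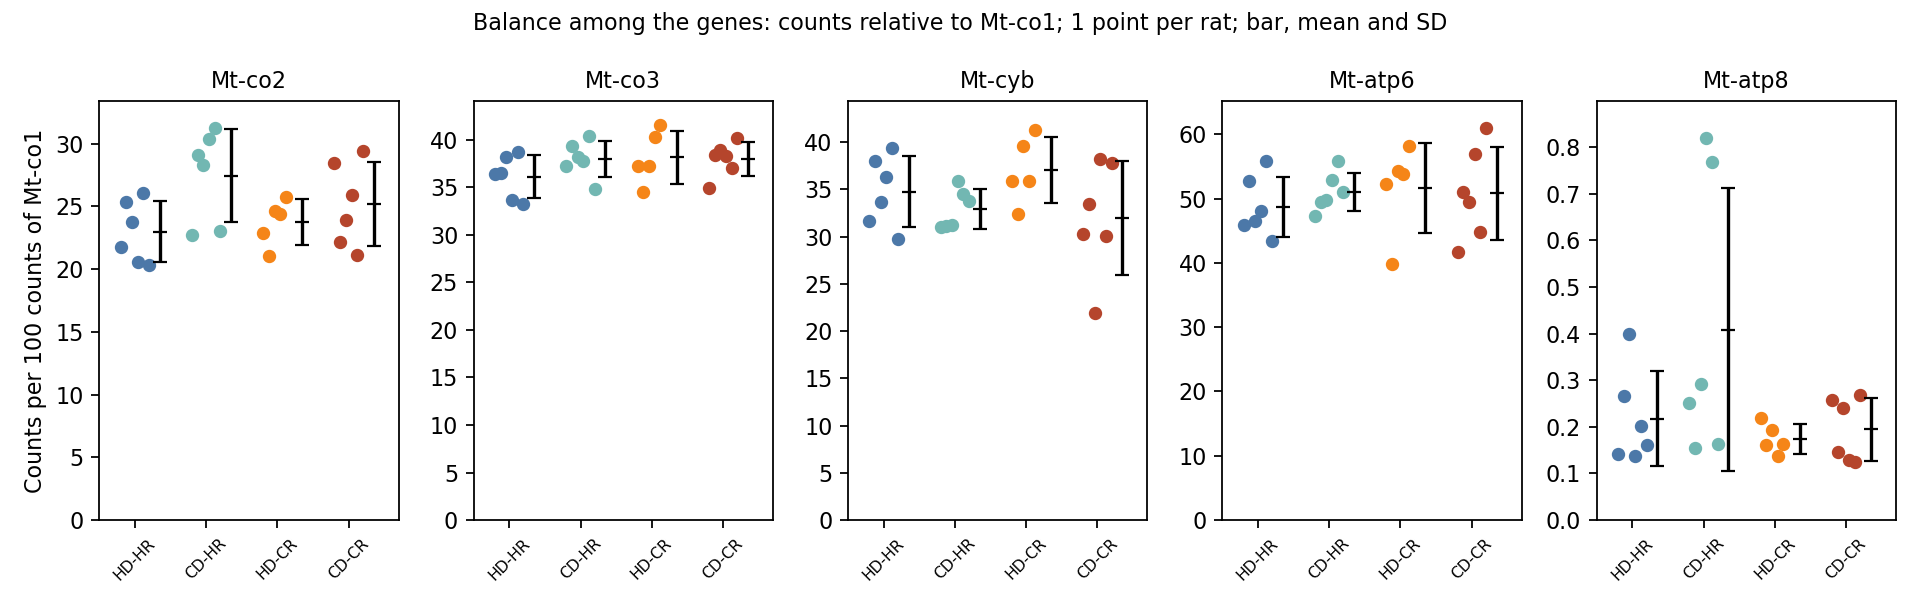
Counts of each gene per 100 counts of Mt-co1 in the same library, by group, with 1 point per rat and mean and SD as a bar. Mt-co3 stays between 33.3 and 41.5, and CD-CR3 stands low for Mt-cyb at 21.9.

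How the shares moved together across the 23 libraries was described by 27 correlations: 15 between pairs of the genes, 6 of each gene with log2 non-unique alignments per count, and 6 with the percentage of ambiguous reads. Shares add up within a library, so they are not independent of each other. Permutations ran over all libraries and not within groups, so the p-values also take in differences between groups. The closest pair was Mt-co1 with Mt-co3, with Pearson's r = 0.88 (permutation p = 1e-05, the smallest that 100000 permutations give, Benjamini-Hochberg adjusted 0.000135) and Spearman's rho = 0.881. Without the 2 libraries farthest from the median of Mt-co1 (CD-CR5 and CD-HR5) r was 0.852, and it was 0.92 among the 9 rats of prefix 12, 0.872 among the 14 of prefix 13 and 0.86 about the group means. Mt-co3 with Mt-atp6 gave r = 0.822 (permutation p = 1e-05, adjusted 0.000135, rho = 0.827), 0.822 without CD-CR5 and HD-HR4, and 0.827 and 0.832 within prefixes 12 and 13. Mt-cyb with Mt-atp6 gave r = 0.718 (permutation p = 0.00014, adjusted 0.000756, rho = 0.713), 0.884 without CD-CR3 and CD-HR5, 0.541 within prefix 12 and 0.919 within prefix 13. Mt-co2 with Mt-co1 gave only r = 0.276 (permutation p = 0.202, adjusted 0.248, rho = 0.175), 0.246 without CD-CR5 and CD-HR5, and 0.189 and 0.259 within prefixes 12 and 13. This low r holds for shares. On log2 TMM-scaled levels both genes followed the sum of the 6 (r = 0.973 for Mt-co1 and 0.884 for Mt-co2), so the correlations depend on the scale. Among the 10 pairs without Mt-atp8, r ran from 0.174 to 0.88 and 8 had an adjusted p under 0.05.

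Mt-atp8 did not follow the others. Its 5 correlations with them ran from -0.462 to 0.163, and with Mt-atp6, the gene it shares a transcript with, r was -0.283 (permutation p = 0.194, adjusted 0.248, rho = -0.129), -0.412 without CD-CR1 and HD-CR2, and -0.0124 and -0.369 within prefixes 12 and 13. The lowest, with Mt-co1 (permutation p = 0.0272, adjusted 0.0459, rho = -0.233), became -0.244 without CD-CR5 and CD-HR5 and so rests on those libraries. It was -0.0143 within prefix 12 and -0.502 within prefix 13. Mt-atp8 also had a coefficient of variation of 18.6% in HD-CR against 64.9% in CD-HR, where CD-HR4 and CD-HR5 were high.

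Libraries with more non-unique alignments had lower shares of 4 of the 6 genes. For Mt-co1, r with log2 non-unique alignments per count was -0.729 (permutation p = 0.0001, adjusted 0.000675, rho = -0.713), and -0.556 without CD-CR2 and CD-HR5. It was -0.744 within prefix 12, -0.745 within prefix 13 and -0.652 about the group means. The corresponding r was -0.602 for Mt-atp6, -0.597 for Mt-co3, -0.542 for Mt-cyb and -0.161 for Mt-co2 (permutation p = 0.00178, 0.00212, 0.00674 and 0.45, adjusted 0.00601, 0.00636, 0.0152 and 0.45, rho = -0.647, -0.595, -0.552 and -0.0731). Without CD-CR2 and CD-HR5 these 4 became -0.514, -0.426, -0.388 and -0.0788. They were -0.51, -0.627, -0.44 and 0.159 within prefix 12, and -0.637, -0.533, -0.632 and -0.15 within prefix 13. About the group means they were weaker, at -0.468, -0.446, -0.44 and -0.0507. For Mt-atp8 the sign was the opposite, r = 0.474 (permutation p = 0.0317, adjusted 0.0503, rho = 0.177), with 0.23 without CD-CR2 and CD-HR5, 0.37 within prefix 12 and 0.465 within prefix 13. Both quantities are divided by the same count in genes. Ambiguous reads, as a percentage of unique reads, rose with Mt-atp6 (r = 0.781, permutation p = 3e-05, adjusted 0.00027, rho = 0.831), with 0.836 without HD-CR3 and HD-CR5, 0.735 within prefix 12 and 0.802 within prefix 13. They also rose with Mt-cyb (r = 0.696, permutation p = 0.00024, adjusted 0.00108, rho = 0.703) and Mt-co3 (r = 0.532, permutation p = 0.00898, adjusted 0.0187, rho = 0.603). Without HD-CR3 and HD-CR5 these were 0.611 and 0.602, within prefix 12 0.557 and 0.565, and within prefix 13 0.889 and 0.454. About the group means r was 0.81 for Mt-atp6, 0.534 for Mt-cyb and 0.471 for Mt-co3. The other 3 did not pass, with r = 0.428 for Mt-co1, 0.234 for Mt-co2 and -0.203 for Mt-atp8 (permutation p = 0.0422, 0.282 and 0.348, adjusted 0.0634, 0.331 and 0.391, rho = 0.495, 0.226 and -0.0217).

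**Figure D5:**
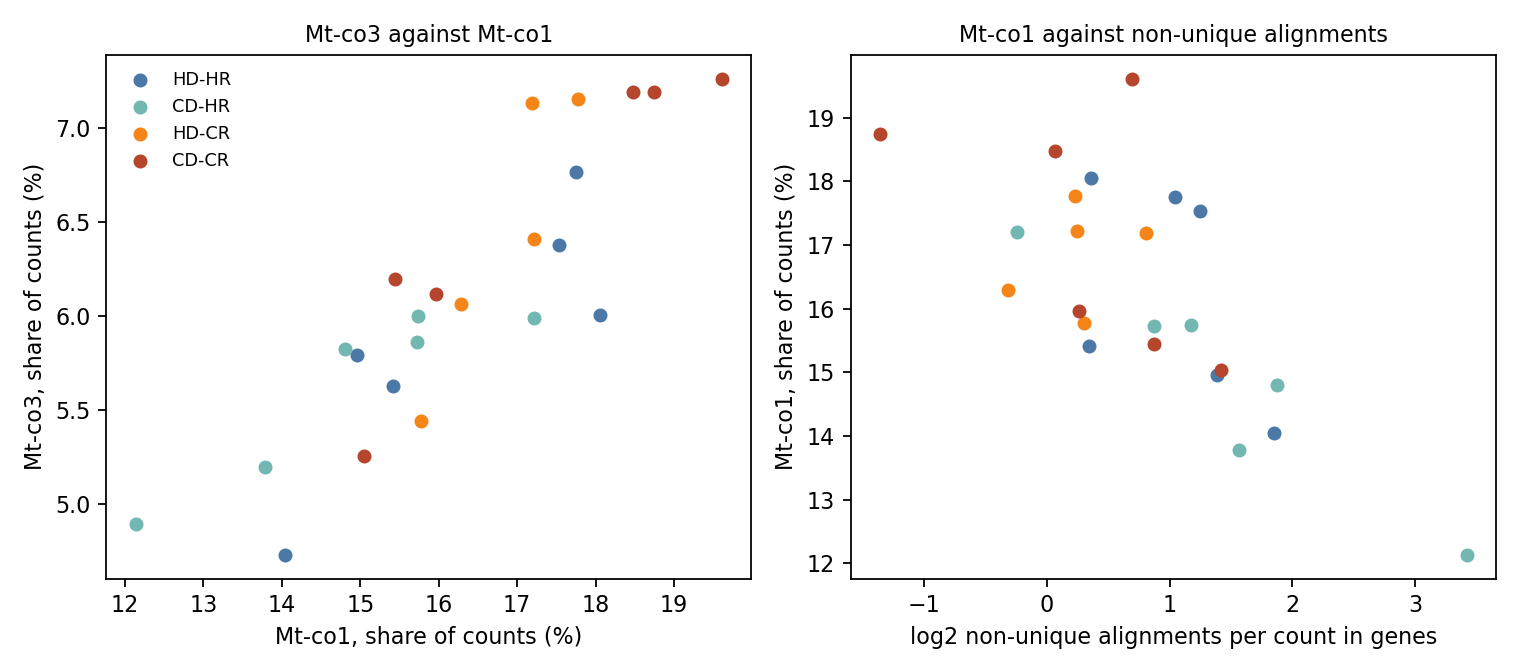
Left, share of counts of Mt-co3 (%) against that of Mt-co1 (%), and right, share of Mt-co1 (%) against log2 non-unique alignments per count in genes, with 1 point per library coloured by group. Mt-co3 climbs with Mt-co1 (r = 0.88), and Mt-co1 declines toward CD-HR5 at the far right of the second panel (r = -0.729).

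Of 11026 other genes averaging 1 CPM or more, those whose log2 TMM-scaled level was most like the summed level of the 6 over the 23 libraries were ENSRNOG00000030644 (r = 0.969) and ENSRNOG00000029707 (r = 0.927). They are themselves abundant, with 3.08 to 5.32% and 3.61 to 6.98% of counts per library. Within the 6, the correlation with their own sum was 0.989 for Mt-co3, 0.979 for Mt-atp6 and 0.973 for Mt-co1. It was 0.890 for Mt-cyb, 0.884 for Mt-co2 and 0.125 for Mt-atp8. Each gene is part of that sum, so its r is built in to an extent that was not tested. The most opposite were ENSRNOG00000012216 (r = -0.887) and ENSRNOG00000017003 (r = -0.818), both scarce, the first at most 0.00388% and the second at most 0.00155% of counts in any library. The genes were picked by these correlations, all from the same libraries and scaling factors, so they are a description.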

How the data were processed

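RNA-seq libraries of the heart apex of 23 rats were analysed from the authors' deposited files of raw counts per gene, 1 file per rat. The tools named for the deposited counts, per the submitters' processing notes, are HTSeq 0.6.1p1, STAR 2.4.2a and Picard, and the build is Rnor_5.0. Not given in the sources used here are the annotation release, the strand and overlap settings and the handling of duplicates. The 5 summary lines of each file were left out of library sizes. They held, of unique reads, 10.6 to 21.5% in no feature and 0.872 to 1.97% ambiguous.

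Each group and replicate number was read from a sample title. Genes were filtered with filterByExpr, TMM-scaled and tested by quasi-likelihood (glmQLFit, robust, and glmQLFTest of edgeR 4.0.16, R 4.3.3), all 23 libraries together, with Benjamini-Hochberg adjustment over 11568 genes. The SE was the log2 fold change divided by the square root of F, and intervals are 95%. Shares are percentages of counts in genes. DESeq2 1.42.0 and other scalings, filters and covariates were alternatives. The code was tested on simulated data. Over all 253 pairs of libraries, chi-square divided by its degrees of freedom was never below 8.38, so no pair agreed within sampling noise.

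The 6 genes, named as paired with their identifiers for this work, and the lists were chosen with earlier results of these data known. All 6 were reported, with the 2 genes most like and the 2 most unlike their sum. The RefSeq gene table at hand (GRCr8) holds 0 Ensembl rat identifiers, so 0 of 14 lists (88 genes of mitochondrial complexes, transcription and cell types) could be tested, and no coordinates or sequences are given.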

Additional observations from a re-analysis of the deposited data

Results flagged for a closer look

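Among the 28 sets of values examined (each of the 6 genes and their sum in each group), 2 held a library that stood far from the rest of its group by Dixon's criterion, and chance alone marks about 1 set in 20. The Mt-atp6 share of HD-HR4 was 6.76% of counts, where the other 5 HD-HR libraries had 7.82 to 8.36%. The Mt-atp6 share of CD-CR1 was 6.28%, where the other 5 CD-CR libraries had 8.79 to 9.56%. HD-HR4 and CD-CR1 also had high TMM factors (1.17 and 1.46), the lowest depths of their groups (7605675 and 7801127 counts in genes) and the most non-unique alignments per count in them (3.61 and 2.67). The part of these in the low shares was not tested.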

How the results depend on the processing

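The count of genes called among the 6 was 0 in all 6 comparisons and stayed 0 under every alternative run except 1, the averaged recipient comparison without CD-CR1, HD-CR2 and HD-HR4, which gave 3. Leaving out single libraries gave 0 to 0. No gene passed with the replicate number as a block (0 in each comparison). The numbers share no stated litter or day, 12 of 33 same-numbered pairs of libraries had deviations correlated above 0.1, and 6 of 23 libraries correlated best with their own number. Of 882 single-gene values under alternatives, 827 kept direction and side of the threshold, 3 newly passed and 52 changed sign, none of the last past the threshold.

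The summed share averaged 32.8% in HD-HR, 30.5% in CD-HR, 35.6% in HD-CR and 35.9% in CD-CR as a share of unique reads in genes or not, and 12.4, 10.5, 17.7 and 17.7% with non-unique alignments in the denominator, where a read can count more than once. Leaving out single libraries gave 38.7 to 40.6% for HD-HR, 36.2 to 38.1% for CD-HR, 41.4 to 43.9% for HD-CR and 41.5 to 43.6% for CD-CR.

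Signs changed as follows, on the log2 scale. In CD-HR against HD-HR, Mt-atp6 was 0.0059 by DESeq2, 0.0057 with scaling without the 6 genes, 0.043 with non-unique alignments as a covariate and 0.0084 in prefix 13, and Mt-co3 0.031 with that covariate. In CD-CR against HD-CR, Mt-atp6 was -0.0026 with library totals, and in prefix 13 (1 rat each) Mt-atp6 was -0.24, Mt-co2 -0.15, Mt-co3 -0.027 and Mt-atp8 -0.25. In the interaction, Mt-cyb was 0.0061 without a filter, 0.0050 with library totals, 0.019 with the prefix covariate and 0.039 without the 3 libraries, Mt-atp6 -0.0032 with non-unique alignments and -0.25 in prefix 13, and Mt-co3 -0.025 in prefix 13. The cause was not tested.

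Leaving out single libraries also changed signs. With recipient CKD and a healthy donor, Mt-atp8 ran from -0.42 to 0.090. In CD-HR against HD-HR, Mt-co3 ran from -0.095 to 0.063 and Mt-atp6 from -0.072 to 0.043. In CD-CR against HD-CR, Mt-co1 ran from -0.024 to 0.20, Mt-co2 from -0.018 to 0.22, Mt-co3 from -0.063 to 0.19 and Mt-atp6 from -0.12 to 0.18. In the interaction, Mt-co2 ran from -0.19 to 0.045, Mt-co3 from -0.056 to 0.20, Mt-cyb from -0.15 to 0.10 and Mt-atp6 from -0.13 to 0.17.

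Over all genes tested, the averaged recipient comparison called 1483 genes, 399 with library totals, 667 without the 3 libraries, 6 with the prefix covariate and 0 in prefix 13. With a healthy donor the count was 71, 259 by DESeq2 and 23 with totals, and with a CKD donor 181, 449 and 50. No scaling moved the median gene by more than 0.1. Leaving out single libraries gave 5 (without HD-CR5) to 89 genes with a healthy donor and 48 (without CD-HR4) to 359 (without CD-HR1) with a CKD donor. Mt-atp8 had the lowest depth of the 6 genes, 1459 to 13743 counts.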
